A study of Sus scrofa with 9 samples.

Results

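Somatostatin, the product of SST, is a small peptide hormone, and its transcript was followed here in cultured pig fibroblasts at 3 times around insulin treatment. The member was found by pairing the gene IDs of the files with symbols and taking the ID paired with SST, ENSSSCG00000033815, which is 1 of the 30477 IDs listed and 1 of the 14864 with a symbol. It was chosen by its measured FPKM at the 3 times, so its own levels, ranks and differences are given as a description with no test. In the Sscrofa11.1 build, SST is a protein-coding gene of 1183 bases on chromosome 13, from 125337560 to 125338742. No annotated gene of the RefSeq table overlaps it.

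The samples were porcine embryonic fibroblasts (PEF), connective tissue cells from pig embryos that were thawed and grown before the treatment. Untreated cells taken at 0 h served as the control, and cells given insulin were taken after 48 h and 72 h, with 3 libraries per time that the submitters describe as biological replicates. The sources used here do not give the breed, the embryo's age, the insulin dose or the medium, nor whether the replicates came from separate cultures, so p-values measure only the spread between these libraries, which may be technical. Untreated cells kept for 48 h or 72 h were not analysed here. Insulin and time in culture therefore cannot be told apart.

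Somatostatin is made by neurons, by delta cells of the pancreatic islets and by D cells of the stomach and gut. Its precursor is cut by prohormone convertases into a shorter and a longer active form, both of which bind the SSTR receptors. These couple to inhibitory G proteins, lower cyclic AMP and restrain the release of other hormones, insulin among them. SST is also a textbook target of CREB, the transcription factor that cyclic AMP activates through protein kinase A and that binds a cyclic AMP response element in its promoter.

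The libraries resembled one another within a time. In the 11063 genes that were tested, those reaching an FPKM of 1 in 3 or more libraries, log2 values correlated at 0.990 or more between libraries of one time and at 0.987 or less between times. FPKM counts fragments per gene length and per fragments mapped in that library, so it allows levels of different genes to be compared, and its sum ranged from 487858 to 563656 per library. By time, the sums were 487858 to 497665 at 0 h, 524992 to 563656 at 48 h and 505022 to 525471 at 72 h. Of 16 fibroblast markers 13 were in the files, and all 13 were tested, led by COL1A1, a chain of type I collagen, at 7019 to 8627 FPKM and the cytoskeletal gene VIM at 4608 to 5633. DES, the intermediate filament gene of muscle cells, was also abundant, at 790 to 1453 FPKM.

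SST was about 4 times as abundant at 48 h as at 0 h, and at 72 h it lay below the 0 h level. Its values at 0 h were 26.7, 25.1 and 23.4 FPKM in replicates 1, 2 and 3. The 48 h libraries held 100.6, 100.1 and 93.2 FPKM. By 72 h the values were 15.9, 13.3 and 10.95 FPKM. All 48 h libraries lay above all 0 h libraries, all 72 h libraries lay below them, and no library of one time overlapped with another time.

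**Figure D1:**
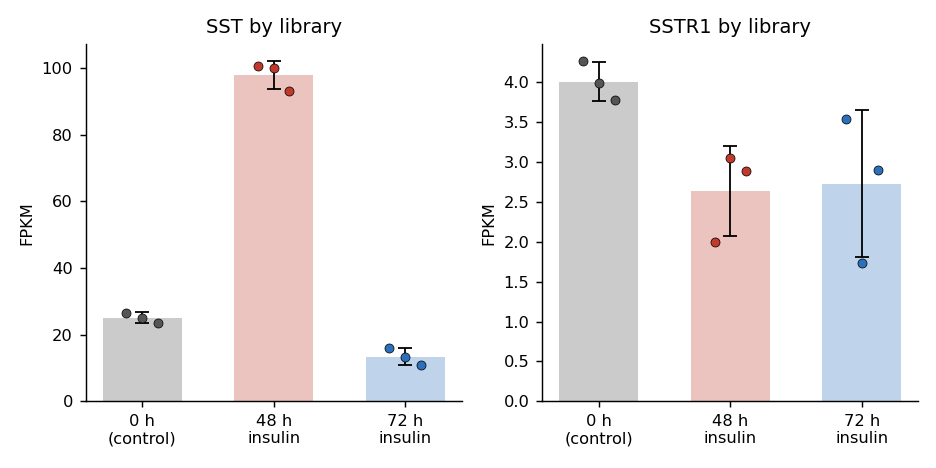
FPKM of SST (left) and of the receptor gene SSTR1 (right) in each library (points) at 0 h, 48 h and 72 h, with the group mean (bar) and SD (error bar, n = 3). The SST libraries of 48 h sit between 93.2 and 100.6 FPKM, above those of 0 h and 72 h, while the SSTR1 libraries of 48 h and 72 h overlap.

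The control mean was 25.1 ± 1.62 FPKM, against 97.9 ± 4.15 at 48 h and 13.4 ± 2.49 at 72 h (SD, n = 3). The 48 h mean was 3.91 times the 0 h mean, with single pairs of libraries between 3.49 and 4.29 times. The 0 h mean in turn was 1.87 times the 72 h mean, with pairs between 1.47 and 2.43 times. Between 48 h and 72 h the mean dropped to 1 in 7.31, with pairs between 5.85 and 9.19. The spread relative to the mean was 6.47% at 0 h, 4.24% at 48 h and 18.6% at 72 h, so that the 72 h libraries differed most among themselves.

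On the scale of log2(FPKM + 1) used for all comparisons below, SST differed by 1.93 ± 0.06 between 48 h and 0 h, by -0.87 ± 0.15 between 72 h and 0 h and by -2.79 ± 0.15 between 72 h and 48 h (SE from the spread of the libraries). The medians of all tested genes were 0.02, -0.01 and -0.03 for the same differences.

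The level of SST moved through a wide part of the transcriptome. Counted from the most abundant of the 30477 genes, SST ranked 2710 to 3078 in the 0 h libraries, 754 to 802 in the 48 h libraries and 4142 to 5299 in the 72 h libraries. Among genes with an FPKM of at least 1 in the library, it exceeded 71.5% to 74.9% at 0 h, 92.6% to 93.0% at 48 h and 51.0% to 61.7% at 72 h. The 72 h libraries thus placed SST near the middle of the expressed genes.

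By the size of its difference from 0 h, SST was ninth from the highest of the 11063 genes at 48 h and 430th from the lowest at 72 h. By the difference between 72 h and 48 h it was second from the lowest. The gene below it there, ENSSSCG00000037630, which has no symbol, was listed at 0 in 4 of the 9 libraries and ranged up to 24.0 FPKM in the others, so its libraries of 1 time overlapped with those of another.

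Genes that were higher at 48 h than at 0 h and then lower at 72 h than at 48 h made up 6.54% of tested genes, or 723. Both calls were by limma with a Benjamini-Hochberg adjusted p below 0.05, a threshold that 49.9% of tested genes passed at 48 h against 0 h, 45.5% at 72 h against 0 h and 25.4% at 72 h against 48 h. This count depends on the scaling and on single libraries. It was 302 at equal FPKM sums, 451 under quantile normalization, 387, 360 and 1093 without 48 h replicate 1, 2 or 3, and 452 and 423 without 72 h replicate 1 or 3. Only 7 of all tested genes had both differences of at least 1 on the log2 scale, SST among them, and 82 had both of at least 0.5. Ranked by the smaller of the 2 differences, SST stood second behind the same gene without a symbol. Such a rank is built on the values by which SST was chosen.

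The 8 genes with the largest rise and fall besides SST, taken from those called in both comparisons, had smaller falls than SST. MT1X, a metallothionein that binds zinc and copper, had 15.9, 18.3 and 18.1 FPKM at 0 h, 60.5, 53.0 and 47.0 at 48 h and 21.2, 26.1 and 21.4 at 72 h. Its 48 h libraries stood above all others, and its 72 h libraries above those of 0 h. It rose by 1.56 ± 0.11 at 48 h (SE, limma adjusted p = 2.75e-06) and fell by 1.19 on the log2 scale from 48 h to 72 h (adjusted p = 3.96e-05). STMN3, a stathmin that binds tubulin, rose by 1.71 ± 0.12 and then fell by 0.88. ECEL1, a membrane metallopeptidase known from neurons, rose by 1.32 ± 0.09 and fell by 0.83. HAS2, which makes hyaluronan, was tested only through its 48 h libraries, since its 0 h libraries lay below an FPKM of 1. It went from 0.643 ± 0.130 to 2.60 ± 0.150 and back to 0.990 ± 0.358 FPKM. The others were MYL11 (a myosin light chain), PGF (placental growth factor), RAMP2 (a partner of the adrenomedullin receptor) and CLK1 (a kinase of splicing factors). The fall of PGF was lost under 5 of 15 alternatives (no filter, and without 48 h replicate 1 or 2 or 72 h replicate 1 or 3, with adjusted p 0.00130 to 0.0659 over all). None of the 8 had a 72 h mean below its 0 h mean.

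SST also differed in passing below its starting level. In all, 44 tested genes (0.398%) were called higher at 48 h than at 0 h, lower at 72 h than at 48 h and lower at 72 h than at 0 h. That count was 18, 16 and 19 without 0 h replicate 1, 2 or 3, 21 without 48 h replicate 2, 29 without 72 h replicate 1, 26 at equal sums and 24 under quantile normalization. SST was not left out of these counts. By the smaller of the 2 differences from 0 h, SST ranked first of all tested genes at 0.87. That rank is built on the values by which SST was chosen. The next gene with a symbol was ID1 at 0.57. The following 4 genes lead that order after SST and were chosen after their values were seen.

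ID1, an inhibitor of differentiation that BMP signals induce, had 96.9, 91.6 and 97.99 FPKM at 0 h, 161, 132 and 135 at 48 h and 33.7, 34.8 and 28.4 at 72 h. Its groups did not overlap, and it rose by 0.57 ± 0.09 at 48 h (limma adjusted p = 6.75e-04) and ended at -1.54 ± 0.09 against 0 h (adjusted p = 3.08e-07). ESM1, a secreted proteoglycan of blood vessels, ended at -0.49 ± 0.09 and SAMD11 at -0.97 ± 0.12. NRM, a protein of the inner nuclear membrane, had the smallest fall of the 4 against 0 h, at -0.40 ± 0.09.

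**Figure D2:**
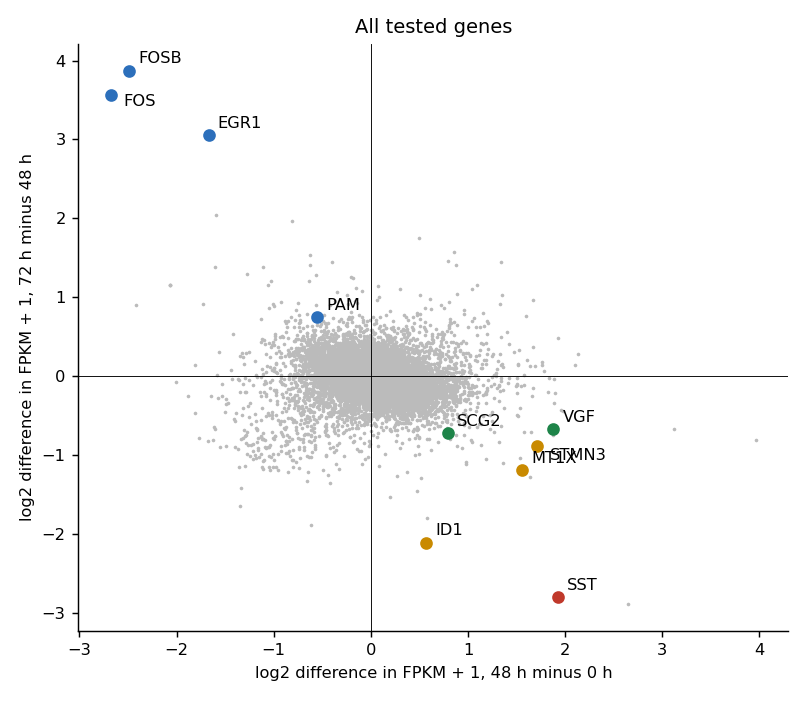
Each grey point is 1 of the 11063 tested genes, placed by its log2 difference between 48 h and 0 h (horizontal) and between 72 h and 48 h (vertical), both in log2(FPKM + 1). SST lies at the lower right, at 1.93 and -2.79, and FOS, FOSB and EGR1 at the upper left, with FOSB at -2.49 and 3.87.

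The genes whose pattern over the 9 libraries was most like that of SST moved far less than SST did. Likeness was the Pearson correlation of log2(FPKM + 1) with SST over the 9 libraries, which share their times and their scaling, and it was computed for 9874 tested genes with a symbol. The highest 8 were ABCB8 (r = 0.991), RPL7L1 (0.989), SEMA7A (0.989), MRAS (0.980), LMNA (0.979), POP7 (0.975), CDC123 (0.974) and RIPK3 (0.972). The other 7 beside SEMA7A had differences of 0.39 or less between 48 h and 0 h. A correlation of at least 0.9 was found for 125 genes (1.27%) and one of -0.9 or lower for 63.

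SEMA7A, a membrane-anchored semaphorin, changed most among the 8, with 2.04, 1.76 and 1.83 FPKM at 0 h, 3.23, 3.39 and 3.21 at 48 h and 1.44, 1.60 and 1.36 at 72 h. As for SST, its 3 groups did not overlap and 72 h was the lowest, but the call at 72 h against 0 h (-0.22, adjusted p = 0.0426) was lost under 8 of 14 alternatives, among them the replicate block and the removal of any 0 h library (adjusted p 0.0221 to 0.149). LMNA, which encodes the nuclear lamins A and C, was far more abundant, at 697 ± 12.3, 912 ± 42.8 and 657 ± 23.9 FPKM. MRAS, a small GTPase related to Ras, rose by 0.31 ± 0.05 at 48 h and ABCB8, a mitochondrial transporter, by 0.27 ± 0.05. The rise of LMNA at 48 h was lost under quantile normalization (0.03, adjusted p = 0.628, against 2.14e-04 to 0.628 over all alternatives), that of RPL7L1 at equal sums and under quantile normalization, and that of CDC123 in both of these settings and without 0 h replicate 1 or 3. Ranked by Spearman correlation instead, 1 of the 8 stayed among the highest 8, and with a pseudocount of 0.1 on the log scale 7 did.

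The genes most opposite to SST, looked up after the values had been seen, were led by immediate early transcription factors. FOSB (r = -0.980), FOS (-0.978), PAM (-0.975) and EGR1 (-0.971) had the 4 lowest correlations of the 9874 genes. FOS, which encodes a subunit of the AP-1 factor, had 171, 167 and 177 FPKM at 0 h, 33.7, 23.8 and 21.8 at 48 h and 380, 270 and 312 at 72 h. Its groups did not overlap, and the order of the times was the reverse of that of SST. It fell by 2.68 on the log2 scale at 48 h (limma adjusted p = 8.31e-07) and rose by 3.56 ± 0.15 from 48 h to 72 h (adjusted p = 3.95e-07).

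EGR1, a zinc finger factor induced by growth signals, had means of 33.5 ± 0.50, 9.89 ± 1.17 and 89.6 ± 9.33 FPKM at 0 h, 48 h and 72 h. FOSB had 15.8 ± 0.499, 2.03 ± 0.447 and 43.8 ± 10.4 FPKM. PAM, which amidates the end of many peptide hormones, is not needed for somatostatin, whose end is not amidated. It had 23.5, 23.1 and 21.98 FPKM at 0 h, 14.4, 15.1 and 16.5 at 48 h and 27.1, 24.3 and 27.97 at 72 h, so the fall at 48 h was -0.55 ± 0.07. Its rise from 0 h to 72 h (0.20, adjusted p = 0.0427) was lost under 9 of 15 alternatives, among them each setting that left out a 0 h library (adjusted p 0.0190 to 0.193 over all alternatives).

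**Figure D3:**
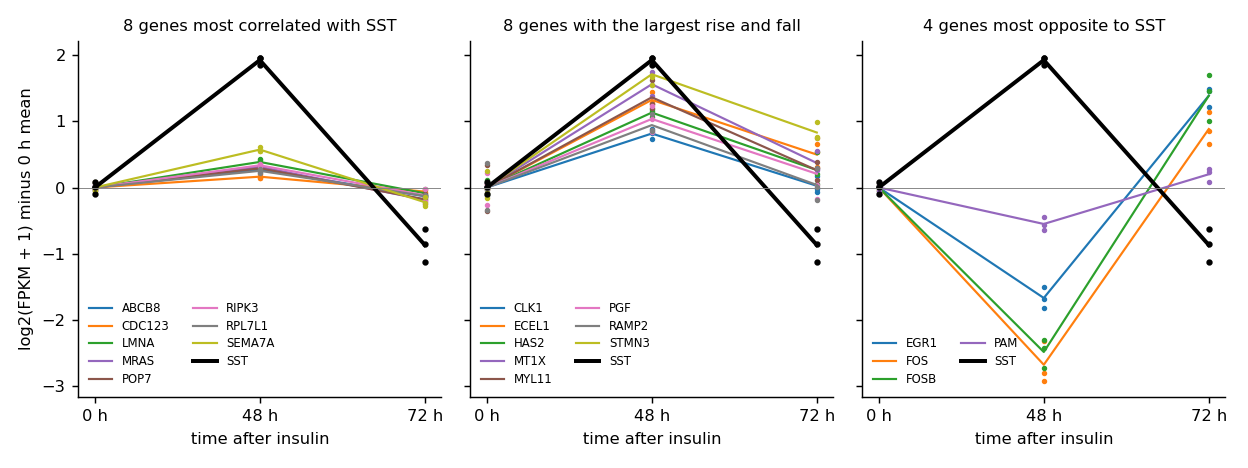
log2(FPKM + 1) minus the 0 h mean of the gene (vertical) at 0 h, 48 h and 72 h, as points for libraries and lines for group means, with SST in black in each panel. The left panel holds the 8 genes most correlated with SST, the middle panel the 8 genes with the largest rise and fall, and the right panel the 4 most opposite genes, of which FOS, FOSB and EGR1 dip at 48 h and end above 0 h.

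Of the receptors through which somatostatin acts, only SSTR1 reached an FPKM of 1. Its values were 4.26, 3.98 and 3.77 FPKM at 0 h, 1.99, 3.04 and 2.88 at 48 h and 3.54, 1.73 and 2.90 at 72 h. The 48 h libraries lay below the 0 h libraries, and those of 72 h overlapped with those of 48 h. SSTR1 was lower at 48 h by 0.47 ± 0.17 (limma adjusted p = 0.0418), where 22.4% of tested genes were called lower, but the call was lost under 9 of the 14 alternatives that kept the gene, namely no filter, a pseudocount of 0.1, quantile normalization, the replicate block and the removal of any 0 h library, of 48 h replicate 1 or of 72 h replicate 3 (adjusted p 0.00959 to 0.153 over all alternatives). At 72 h it stood at -0.46 ± 0.17 against 0 h (adjusted p = 0.0509). SSTR2 was listed at 0.01 FPKM in 2 libraries and at 0 in the others, and SSTR3 and SSTR5 were listed at 0 in all 9. SSTR4 was not analysed here. CORT, which encodes cortistatin, the relative of somatostatin that binds the same receptors, was listed at 0.08 and 0.09 FPKM in 2 libraries of 0 h and at 0 in the other 7.

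The convertases known from endocrine cells were near 0, and those of the general secretory route were expressed. PCSK1 was at 0.08 FPKM or less and PCSK2 at 0.01 or less in every library. FURIN, the convertase of the Golgi that can release the longer form of somatostatin, had 23.2 ± 0.588 FPKM at 0 h, 29.1 ± 1.03 at 48 h and 26.1 ± 0.804 at 72 h, a rise of 0.31 ± 0.06 at 48 h. PCSK7 rose by 0.47 ± 0.06 and PCSK6 was at -0.04 ± 0.06 (adjusted p = 0.605). PCSK1N, which encodes an inhibitor of PCSK1, rose from 37.7 ± 0.971 to 58.5 ± 6.51 FPKM (0.61 ± 0.08) and stayed at 61.1 ± 4.69 at 72 h.

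Carboxypeptidases, which trim the cut ends, went different ways. CPE, the enzyme of secretory granules, was at 0.23 ± 0.12 at 48 h (adjusted p = 0.123) and rose by 0.64 ± 0.12 at 72 h against 0 h, where 23.0% of tested genes were higher and 22.5% lower. CPD fell by 0.59 on the log2 scale at 48 h, with values of 12.1, 14.8 and 18.3 FPKM in the 48 h libraries, and was at -0.14 ± 0.11 at 72 h against 0 h. CPZ rose by 0.49 ± 0.08 at 48 h and was at 0.55 ± 0.08 at 72 h against 0 h. Of the 10 tested processing genes 5 were higher and 2 lower at 48 h, with a median difference of 0.27, where 27.6% of all tested genes were higher and 22.4% lower, with a median of 0.02. At equal FPKM sums, a scaling that moved the median of all genes by -0.12, the counts were 5 and 3. At 72 h against 0 h 7 were higher and 0 lower, with a median of 0.24 (5 and 0 at equal sums). At 72 h against 48 h 3 were higher and 1 lower (4 and 0 at equal sums), beside 9.17% and 16.3% of all tested genes. PCSK7, the only 1 of the 10 that was higher at 48 h and then lower at 72 h, lost the second call under 9 of 15 alternatives, namely both other scalings and the removal of any library but 48 h replicate 3 or 72 h replicate 1 (adjusted p 0.0321 to 0.178).

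Among genes of secretory granules, VGF and SCG2 were highest at 48 h, as SST was, while the chromogranins were close to 0. VGF encodes a granule protein that is cut into several peptides. It had 45.1, 46.1 and 48.1 FPKM at 0 h, 189, 181 and 153 at 48 h and 114, 112 and 99.9 at 72 h. Its groups did not overlap, with 72 h in between. VGF rose by 1.88 ± 0.08 at 48 h (limma adjusted p = 1.89e-07), close in size to the difference of SST, but fell by only 0.67 from 48 h to 72 h (adjusted p = 3.18e-04).

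SCG2, which encodes secretogranin II, had 0.810, 1.01 and 0.720 FPKM at 0 h, 2.18, 2.16 and 2.25 at 48 h and 1.16, 0.460 and 1.31 at 72 h. The 48 h libraries stood above all others, and those of 0 h and 72 h overlapped. SCG2 rose by 0.79 ± 0.15 and fell by 0.72, and both calls held under the 14 alternatives that kept the gene. CHGA was at 0.490 FPKM or less and CHGB at 0.580 or less in all libraries. STX1A, a syntaxin of the release machinery, rose by 0.66 ± 0.13 at 48 h and stayed at 0.68 ± 0.13. PTPRN, a granule membrane protein, was at -0.03 ± 0.09 at 48 h and fell by 0.54 from 48 h to 72 h. Of the 7 tested granule genes 4 were higher and 1 lower at 48 h (median 0.28; 3 and 1 at equal sums), beside 27.6% and 22.4% of all tested genes. None were higher and 3 were lower at 72 h than at 48 h, beside 9.17% and 16.3% of all tested genes.

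Among the listed peptide hormone genes, SST was the most abundant at 48 h. Of 66 such genes besides SST 50 were in the files, 36 of those stayed below an FPKM of 1 in every library and 23 were at 0 in every library. Ordered by mean FPKM, SST was second at 0 h after STC2, first at 48 h, and at rank 4 at 72 h after STC2, PNOC and ADM. VGF, counted here with the granule genes, had a higher mean than SST at all 3 times. STC2 (stanniocalcin 2) had 53.9 ± 1.45, 44.5 ± 3.55 and 49.1 ± 2.70 FPKM at the 3 times. At 0 h the libraries of SST, at 23.4 to 26.7 FPKM, lay just above those of PNOC (prepronociceptin), at 22.5 to 23.3. By 72 h the SST libraries lay below those of ADM (adrenomedullin), at 18.2 to 31.2.

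Of the 11 tested peptide genes 6 were higher and 2 lower at 48 h, with a median of 0.52 (5 and 2 at equal sums, median 0.41), beside 27.6% and 22.4% of all tested genes. ADM, which widens blood vessels, had 10.6 ± 0.358 FPKM at 0 h, went up to 19.5 ± 1.27 at 48 h (0.82 ± 0.15) and was at 23.5 ± 6.82 at 72 h. APLN, which encodes apelin, rose by 0.98 ± 0.22. EDN1 (endothelin 1), which narrows blood vessels, had means of 4.02 ± 0.462, 0.697 ± 0.0651 and 1.10 ± 0.151 FPKM and fell by 1.56 on the log2 scale at 48 h. It was tested only through its 0 h libraries, since all 48 h libraries lay below an FPKM of 1. The only member besides SST that was called higher at 48 h and then lower at 72 h was NTS (neurotensin), with 2.04, 1.52 and 1.0, then 3.02, 2.49 and 2.74, then 0.960, 2.00 and 1.68 FPKM. Its 48 h libraries stood above the others, but the second call (-0.58, limma adjusted p = 0.0345) was lost under 8 of 14 alternatives, namely equal sums, no filter, the replicate block and the removal of any 48 h library or of 72 h replicate 1 or 3 (adjusted p 0.0222 to 0.113), and the first without 0 h replicate 3, without 48 h replicate 1 and with no filter.

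**Figure D4:**
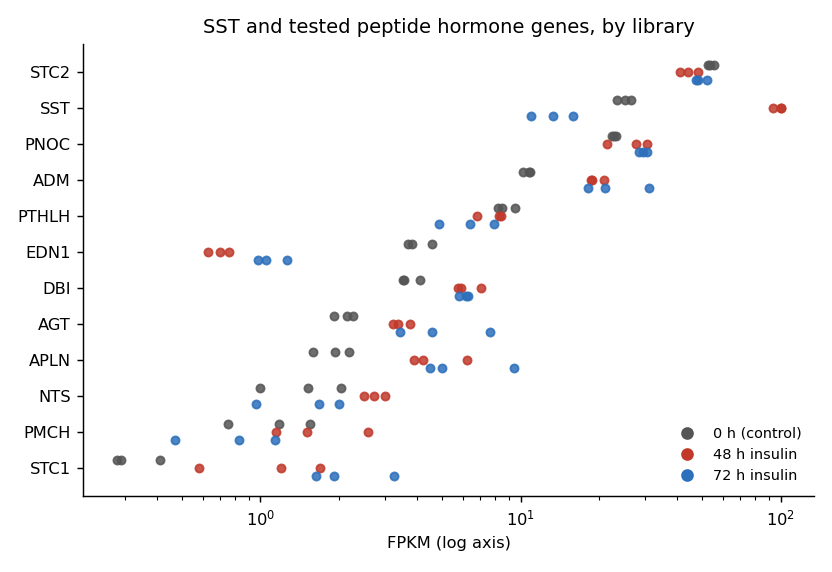
FPKM on a log axis (horizontal) of SST and the 11 tested peptide hormone genes (rows, ordered by their 0 h mean), with 1 point per library coloured by time. The SST points are split into 3 separate groups from 10.95 to 100.6 FPKM, while the libraries of PNOC, at 21.6 to 30.7 FPKM, overlap between 48 h and 72 h.

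With the values as deposited, most tested genes of the cyclic AMP and CREB pathway were not called between 48 h and 0 h. CREB1, the factor itself, had 6.25 ± 0.530, 5.16 ± 0.965 and 6.29 ± 0.667 FPKM, a difference of -0.24 ± 0.11 at 48 h (limma adjusted p = 0.1004). PRKACA, the catalytic subunit of protein kinase A, was at 0.00 ± 0.07 (adjusted p = 0.997). Of 26 tested members 3 were higher and 6 lower at 48 h with a median of -0.02, and 17 were not called, beside 27.6% higher and 22.4% lower with a median of 0.02 over all tested genes. At equal sums the counts were 1 and 12. PRKAR2A, a regulatory subunit of the kinase, fell by 0.61 on the log2 scale and PKIA, an inhibitor of the kinase, by 0.60, and the 48 h libraries of PRKAR2A differed widely, at 16.4, 21.98 and 29.1 FPKM. ATF2 fell by 0.56. The only member higher at 48 h and then lower at 72 h was PDE4B, a cyclic AMP phosphodiesterase, at 4.65 ± 0.197, 7.48 ± 1.21 and 4.72 ± 1.77 FPKM. Its first call was lost under 5 of 15 alternatives (adjusted p 0.00161 to 0.0659) and its second under 6 (adjusted p 0.00119 to 0.111). Equal sums, no filter and the removal of 48 h replicate 2 or 3 ended both, that of 0 h replicate 1 the first, and that of 72 h replicate 1 or 3 the second.

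Known target genes of CREB went both ways. Of 26 tested targets besides SST 13 were higher and 8 lower at 48 h with a median of 0.25 (9 and 9 at equal sums, median 0.13), and 8 were higher and 5 lower at 72 h than at 48 h (10 and 3 at equal sums). Over all tested genes the shares were 27.6% higher and 22.4% lower at 48 h, and 9.17% and 16.3% at 72 h against 48 h. At 72 h against 0 h, where SST was lower, 17 targets were higher and 4 lower with a median of 0.44. The counts were 16 and 4 at equal sums, beside 23.0% and 22.5% of all tested genes as reported. NR4A1, an orphan nuclear receptor, rose from 3.12 ± 0.114 to 6.97 ± 0.350 FPKM at 48 h and was at 8.99 ± 2.54 at 72 h, with no fall. RGS2, a brake on G protein signals, rose by 0.89 ± 0.11 and stayed at 1.13 ± 0.11 against 0 h. FOS, FOSB and EGR1, also on this list, fell at 48 h as given above. The members called higher at 48 h and then lower at 72 h were VGF, SCG2, PDE4B and PER1, a clock gene (0.32 ± 0.08, then -0.29), which is 4 of 26 beside 6.54% of all tested genes. AREG, a growth factor of the EGF family, was at 0.20 ± 0.12 at 48 h (adjusted p = 0.205) and fell by 0.68 from 48 h to 72 h.

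**Figure D5:**
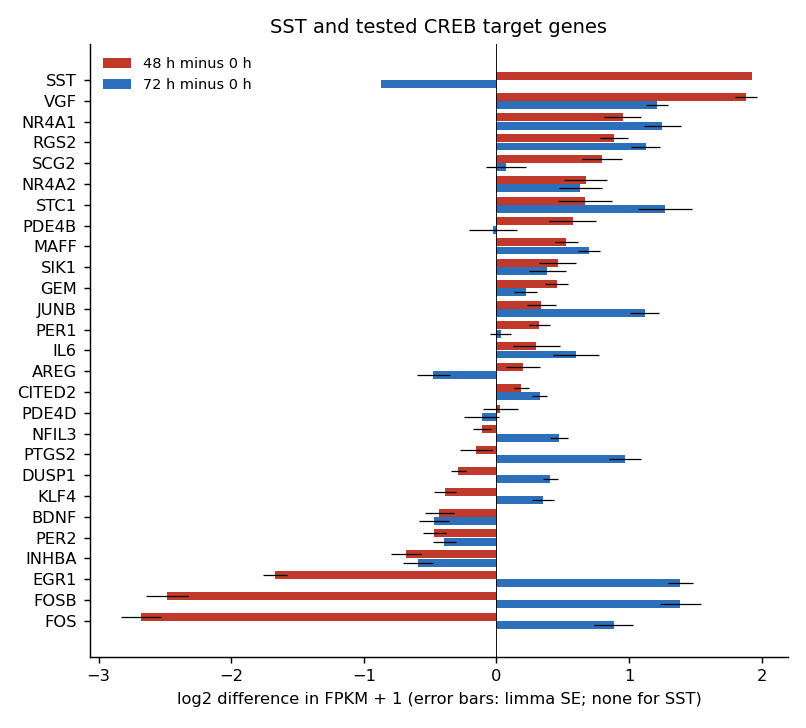
log2 difference in FPKM + 1 against 0 h at 48 h (red) and at 72 h (blue) for SST and the 26 tested CREB target genes, ordered by the 48 h difference, with the SE from limma as error bars and none for SST. SST and VGF are at the top with 1.93 and 1.88 at 48 h, and at 72 h VGF is at 1.21 while SST is at -0.87.

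Transcription factors known to act on SST in islets, or to mark somatostatin neurons, were partly expressed. Of 26 listed 21 were in the files and 14 were tested, of which 5 were higher and 6 lower at 48 h (median -0.15; 4 and 7 at equal sums) and 0 higher and 3 lower at 72 h than at 48 h. The shares over all tested genes were 27.6% and 22.4% at 48 h, and 9.17% and 16.3% at 72 h against 48 h. PAX6, a factor of islet and eye development, fell from 8.68 ± 0.921 to 5.15 ± 0.294 FPKM, and HHEX, which delta cells need in the mouse, from 1.76 ± 0.165 to 0.747 ± 0.0306. HHEX was tested only through its 0 h libraries, where it was highest. MEIS2 rose by 0.46 ± 0.10 and PBX2, a homeodomain partner of MEIS proteins, by 0.40 ± 0.08. ISL1, also an islet marker, was higher than at 0 h by 0.47 at 48 h (limma adjusted p = 0.0136) and by 0.63 at 72 h (adjusted p = 0.00265). Its call at 48 h was lost without 0 h replicate 3 (adjusted p 0.00587 to 0.0565 over the 14 alternatives that kept the gene). DLX2, known from the forebrain in which somatostatin neurons arise, had 28.3 ± 1.12, 20.8 ± 0.386 and 14.4 ± 0.480 FPKM, lower at each later time. DLX5, DLX1 and DLX2 were the 3 that fell from 48 h to 72 h, and the fall of DLX5 was lost without 48 h replicate 1 and with no filter (adjusted p 0.00634 to 0.0560). None was called higher at 48 h and then lower at 72 h.

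Of 23 genes of the signal below the receptors that were in the files, 14 were tested and 8 stayed below an FPKM of 1 in every library, among them the potassium channel genes KCNJ3 and KCNJ6 and the adenylyl cyclase gene ADCY1. GNAI2, an inhibitory G protein subunit, rose from 200 ± 8.70 to 235 ± 5.02 FPKM, and GNAI1 fell from 73.6 ± 3.84 to 50.2 ± 10.3. PTPN6, a phosphatase linked to SSTR signals, rose from 0.507 ± 0.0289 to 1.48 ± 0.107 FPKM, while its relative PTPN11 fell from 74.2 ± 2.73 to 51.6 ± 6.03. PTPN6 was tested only through its later libraries, since those of 0 h lay below an FPKM of 1. Of the 14 tested members 4 were higher and 5 lower at 48 h (3 and 6 at equal sums), beside 27.6% and 22.4% of all tested genes, and 0 were higher at 48 h and then lower at 72 h.

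None of the 4 tested neighbours of SST on chromosome 13 was called higher at 48 h and then lower at 72 h, beside 6.54% of all tested genes. BCL6 and MASP1 were higher at 48 h, as 27.6% of all tested genes were, and stayed above 0 h. The nearest annotated gene, RTP2, 16.3 kb away, was at 0 in all libraries. BCL6, a transcriptional repressor 38.5 kb away on the same side, rose by 0.44 ± 0.08 at 48 h and was at 0.57 ± 0.08 at 72 h against 0 h. MASP1, a protease of the complement system 309 kb away on the other side, overlaps RTP1, which was at 0.07 FPKM or less. It had 7.68 ± 0.259, 23.6 ± 1.10 and 23.0 ± 8.76 FPKM. Its 72 h libraries spread from 16.7 to 33.1 FPKM, and without 72 h replicate 2 it was called lower at 72 h than at 48 h (-0.37, adjusted p = 0.0105, against 0.0105 to 0.993 over all alternatives). LPP, 444 kb away, fell by 1.73 on the log2 scale at 48 h with values of 2.87, 5.78 and 12.3 FPKM in the 48 h libraries. ST6GAL1, 500 kb away, was at 0.08 at 48 h (limma adjusted p = 0.506) and 0.38 at 72 h (adjusted p = 0.00783) against 0 h. Of the 10 nearest protein-coding genes 8 were in the files and 4 were tested.

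Defining markers of the cells known to make somatostatin were mostly at or near 0. Of 18 islet and gut endocrine markers besides SST 14 were in the files, 12 stayed below an FPKM of 1 in every library and 7 were at 0 in every library, among them INS, GCG and PPY. Their summed level was 3.23 to 4.08 FPKM at 0 h, 2.68 to 3.37 at 48 h and 3.12 to 3.23 at 72 h. Of the 2 tested endocrine markers, ISL1 was higher (0.47 and 0.63) and HHEX lower (-0.66 and -0.81) at 48 h and 72 h than at 0 h. Over all tested genes 27.6% were higher and 22.4% lower at 48 h, and 23.0% and 22.5% at 72 h. Of 20 neuron markers 19 were in the files, and 14 of these stayed below an FPKM of 1, including SNAP25, SYP and GAD1.

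The summed level of the neuron markers was 91.7 to 102 FPKM at 0 h, 164 to 189 at 48 h and 150 to 170 at 72 h, so it was higher at both later times, unlike SST. Most of it was TUBB3, a tubulin, at 62.0 to 161 FPKM, and STMN2, a stathmin, at 17.2 to 28 FPKM. The sum does not describe most members. Of the 5 tested neuron markers 1 was higher and 2 lower at 48 h (median -0.26), beside 27.6% and 22.4% of all tested genes. At 72 h against 0 h 1 was higher and 3 lower (median -0.45), beside 23.0% and 22.5%. The epithelial markers also had their highest sum at 48 h, with 8.05 to 9.37 FPKM at 0 h, 14.3 to 14.9 at 48 h and 10.9 to 12.3 at 72 h. Most of it was KRT8, a keratin, with 6.43, 5.36 and 6.16 FPKM at 0 h, 12.5, 11.6 and 11.4 at 48 h and 8.42, 8.36 and 10.1 at 72 h, so its groups did not overlap. KRT8 rose by 0.88 ± 0.09 at 48 h (limma adjusted p = 3.09e-05) and fell by 0.37 from 48 h to 72 h (adjusted p = 0.0137), a fall that was lost without 72 h replicate 1 (adjusted p 0.00823 to 0.0519 over all alternatives). Unlike SST it stayed above its 0 h level at 72 h, and the defining epithelial genes EPCAM and CDH1 were at 0.08 FPKM or less in every library. Of 9 epithelial markers 6 were in the files and 3 of these stayed below an FPKM of 1.

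The sums of glia and neural crest markers and of leukocyte markers were higher at 48 h and at 72 h than at 0 h in every library. Those of glia and neural crest were 6.61 to 7.27 FPKM at 0 h, 14.6 to 15.4 at 48 h and 11.2 to 17.2 at 72 h, mostly from ERBB3, and 6 of the 7 in the files stayed below an FPKM of 1. Those of leukocytes were 33.7 to 37.3, then 56.1 to 58.9, then 42.1 to 70.5 FPKM, mostly from CD79A and LYZ, with PTPRC and CD3E at 0 in every library and 5 of 8 below an FPKM of 1. Endothelial sums were 14.7 to 15.0 FPKM at 0 h, 12.1 to 14.7 at 48 h and 18.3 to 20.2 at 72 h, with 4 of 7 below an FPKM of 1. The muscle markers, mostly DES, summed to 1431 to 1461 FPKM at 0 h, 862 to 942 at 48 h and 793 to 997 at 72 h. The part of these cell types in the results on SST was not tested. In these bulk samples, more cells that express SST and more SST transcript per cell cannot be told apart.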

How the data were processed

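Per the labels' protocols, total RNA was depleted of ribosomal RNA before library preparation (NEBNext Ultra). The deposited values are FPKM per gene and library, made by the authors, per the file headers. Listed without roles in the submitters' processing notes are RSEM 1.2.28, featureCounts 2.0.2, HISAT2 2.1.0, DESeq2 and the build Sscrofa11.1. The annotation and whether strand was used were not given in the sources used here. An FPKM value depends on the assigned gene length and on the other transcripts of the library. The read depth is unknown: with 2 decimals, the steps between low values were too few to estimate it, so no counting interval is given.

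The 11063 genes reaching an FPKM of 1 in 3 or more libraries were compared as log2(FPKM + 1), a scale on which changes of low genes are understated. A low gene can pass this filter through 1 time alone, so that its entry depends on its level at that time. One model per gene over the 9 libraries, with a term for group and a trended prior, was computed in limma 3.58.1 under R 4.3.3. Tests were two-sided, with Benjamini-Hochberg adjustment over all tested genes and a threshold of 0.05. The script was tested on simulated data.

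SST and the gene lists were chosen with earlier results of these data known. Named genes were all SST ligands and receptors, the 8 genes most like SST, the 8 with the largest rise and fall, up to 4 leading called members of each list and other members where a sentence needed a level, the neighbours of SST, and the highest markers. Genes outside this rule are marked. A motif count in promoters was planned and not run. Symbols came from a gene name table (14864 of 30477 IDs) and coordinates from a RefSeq table of Sscrofa11.1, and list members with no match were not analysed here.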

Additional observations from a re-analysis of the deposited data

Results flagged for a closer look

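In SST and 14 of the other named genes, the libraries of 48 h and of 72 h lay on opposite sides of every 0 h library. Both differences use the same 0 h libraries. For SST the log2 differences from 0 h were 1.93 at 48 h and -0.87 at 72 h, and the difference between them was not tested because the gene was chosen for this pattern. For the other genes the difference between 48 h and 72 h passed limma's test (adjusted p below the threshold of 0.05). Passing it was a condition for choosing ID1, SAMD11, ESM1 and NRM. The remaining genes were picked by their correlation with SST, which made passing likely. The test therefore gives no separate support for the pattern.

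Higher at 48 h and lower at 72 h, in that order of values, were ID1 (0.57 and -1.54), SAMD11 (0.48 and -0.97), ESM1 (0.49 and -0.49), NRM (0.39 and -0.40) and SEMA7A (0.57 and -0.22). Smaller differences of the same kind were those of MRAS (0.31 and -0.19), POP7 (0.29 and -0.18), ABCB8 (0.27 and -0.13), RPL7L1 (0.25 and -0.13) and CDC123 (0.16 and -0.062). Of these 10 genes, ABCB8, RPL7L1 and CDC123 were not called at 72 h against 0 h, and 6 were named for their likeness to SST and 4 for this pattern, so that the direction follows from the choice.

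Lower at 48 h and higher at 72 h were FOS (-2.68 and 0.88), FOSB (-2.49 and 1.39), EGR1 (-1.67 and 1.39) and PAM (-0.55 and 0.20). These were picked as the genes most opposite to SST, so their direction also follows from the choice. No group had enough libraries to look for single outlying values.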

How the results depend on the processing

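The 3 differences of SST kept their sign under all 15 alternatives. These were another pseudocount, 2 other filters, 2 other scalings, the replicate block and leaving out each library. Only the 2 scalings could have changed a sign, because the SST libraries of the 3 times did not overlap. The filters and the replicate block cannot alter its differences at all. SST was chosen for this pattern, so the kept sign gives no separate support for it. The differences ranged from 1.79 to 1.97 for 48 h against 0 h, from -0.99 to -0.74 for 72 h against 0 h and from -2.92 to -2.67 for 72 h against 48 h. The first moved by more than the SD of its libraries (0.077, log2 scale) at equal FPKM sums (1.79) and under quantile normalization (1.84), and no other move of the 3 passed that size for its own groups (0.19 and 0.18). Leaving out 1 library gave 4445 to 5763 called genes for 48 h against 0 h (5524 with all), 4097 to 5437 for 72 h against 0 h (5029) and 1727 to 3693 for 72 h against 48 h (2814), with the lowest of the last without 48 h replicate 2. Genes higher at 48 h and then lower at 72 h numbered 723, and 360 to 1093 without 1 library, 302 at equal FPKM sums and 451 under quantile normalization. Of the called genes 55.2% were higher at 48 h than at 0 h, and 34.7% at equal sums, while 36.0% were higher at 72 h than at 48 h, 55.9% at equal sums and 48.6% under quantile normalization. Every 48 h library had a larger FPKM sum than every 0 h library, so setting the sums equal lowers 48 h against 0 h by construction. Why the sums differed, and what moved the share under quantile normalization, was not tested.

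Of 142 calls on named genes 109 held under each alternative that kept the gene and 33 were lost under at least 1, and none reversed. For 36 of the 142 the filter of FPKM at least 5 gave no value, and these were compared under the other 14. Of 44 pairs of gene and comparison that were not called, 12 were called under at least 1 alternative. Same-numbered libraries did not deviate together in every pair (correlations of -0.07 to 0.19), so the numbers are not taken to pair the samples. With the replicate block the counts were 5632, 5152 and 3031 called genes and 819 higher at 48 h and then lower, and 5 calls on named genes were lost. The read depth is unknown, and the median SE of 0.088 for a log2 difference at 48 h sets the precision. The planned count of promoter motifs was not run.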
